A study of Mus musculus with 6 samples.

Results

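The S100 genes encode small calcium-binding proteins, and 10 of them were followed in the hearts of hypertensive mice: S100a1, S100a4, S100a6, S100a8, S100a9, S100a10, S100a11, S100a13, S100a16 and S100b. They were taken by name from a table of 30914 genes. The study asked how Tectochrysin (Tec), a flavonoid, acts on the heart of mice that receive angiotensin II (Ang II), a peptide hormone that raises blood pressure and drives cardiac hypertrophy and fibrosis. All mice were male wild-type C57BL/6J of 8 weeks, and all carried an osmotic pump that delivered Ang II over 4 weeks (1 μg/kg/min). The 3 mice of the Ang II group were compared with 3 mice of the Ang II + Tec group, which also received Tec at 5 mg/kg over the last 2 weeks. Hearts without Ang II were not analysed here, so each comparison is between 2 groups that share the hypertensive stimulus. Values are given in the order of replicates 1, 2 and 3, and hearts with Ang II alone are those of the Ang II group.

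S100 proteins carry paired EF-hand loops, and most of them form dimers. Binding of calcium opens a surface by which they attach to target proteins such as annexins, myosins, ion channels and kinases, so that a calcium signal is passed on to contraction, membrane repair or movement. Some members are also secreted and act as danger signals on receptors of neighbouring cells. In the heart, S100A1 is the member of the working cardiomyocyte, whereas S100A4, S100A6, S100A10 and S100A11 are known from fibroblasts, vessels and immune cells, and S100A8 and S100A9 from neutrophils and monocytes.

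Gene expression was given as FPKM, fragments scaled by transcript length and library total, and tests were run on log2(FPKM + 1), a scale that understates the change of genes with low values. Of the 10 genes, 9 passed the filter of at least 0.5 FPKM in at least 3 libraries. S100a8 did not. In the Ang II + Tec group, 8 of the 9 tested genes had lower mean log2 values than in the Ang II group and S100a9 was higher. None reached an adjusted p under 0.05 with limma. The median log2 fold change was -0.60 over the 9 genes and -0.17 over the 13089 genes tested, of which 10471 (80.0%) were lower. With libraries rescaled by their median of ratios, the median of all genes moved to 0.0020 and that of the 9 genes to -0.37. In whole tissue, fewer cells of a type and less RNA per cell cannot be told apart.

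The libraries did not all resemble their group, which bears on every result that follows. The leading principal component (68.7% of the variance) placed Ang II replicates 1 and 2 at -31.2 and -46.1, and Ang II replicate 3 at 19.2, beside the Ang II + Tec hearts at 28.6, 2.39 and 27.0. Myl7, the light chain of atrial myosin, was at 419 and 332 FPKM in Ang II replicates 1 and 2 and at 1039.78 FPKM in Ang II + Tec replicate 2. It was listed at 0 or at 1.58 FPKM in the other 3 libraries, so that atrial transcripts were not spread evenly over the groups. Mitochondrial transcripts made up 40.2% to 48.9% of the summed FPKM in the Ang II group and 49.6% to 52.5% in the Ang II + Tec group. The FPKM hold no read totals, but the steps between their lowest values put the depth at 0.959 to 1.28 times that of Ang II replicate 1.

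All but S100b lie on mouse chromosome 3 and S100b on chromosome 10 (coordinates of the deposited table, which match GRCm38). S100a1 (chr3:90511034-90514392, reverse strand) and S100a13 (chr3:90514435-90524581, forward strand) are arranged head to head with 42 bases between their gene models. S100a16 (chr3:90537254-90543151), S100a4 (chr3:90603771-90606045), S100a6 (chr3:90612882-90624181), S100a8 (chr3:90668978-90670035) and S100a9 (chr3:90692632-90695721, reverse strand) follow, with at most 60619 bases between neighbours. S100a11 (chr3:93520488-93526287) and S100a10 (chr3:93555080-93564643) form a separate pair beyond a gap of 2824766 bases. That gap holds 28 other genes with deposited values, and genes without such values were not counted. S100b spans chr10:76253853-76261159 and overlaps Dip2a on the opposite strand, with 0 exonic bases in common. S100a4 shares 302 exonic bases with Gm42674 on the same strand, a gene model not analysed here, so that reads of both cannot be told apart. The coding transcripts of 8 of these genes have 3 exons each, those of S100a4 have 2 or 3 and that of S100a13 has 4.

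The start regions of 4 genes that had the lowest ratios or the clearest separation between the groups are printed here, from RefSeq on GRCm38.p6, forward strand, each up to the base before its gene model (S100a4 chr3:90603520-90603770, S100a6 chr3:90612644-90612881, S100a11 chr3:93520246-93520487, S100a16 chr3:90537004-90537253). Capitals mark matches to the TATA box (TATAAA) or to the AP-1 motif (TGANTCA), searched on both strands. The 42 bases between S100a1 and S100a13 (chr3:90514393-90514434) are given on the reverse strand, the strand of S100a1, because this short stretch parts the starts of both genes.
S100a4: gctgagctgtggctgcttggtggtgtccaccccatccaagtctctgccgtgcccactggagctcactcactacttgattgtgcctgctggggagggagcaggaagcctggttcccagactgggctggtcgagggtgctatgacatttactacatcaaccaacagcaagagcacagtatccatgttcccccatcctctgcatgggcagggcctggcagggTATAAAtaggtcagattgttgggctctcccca
S100a6: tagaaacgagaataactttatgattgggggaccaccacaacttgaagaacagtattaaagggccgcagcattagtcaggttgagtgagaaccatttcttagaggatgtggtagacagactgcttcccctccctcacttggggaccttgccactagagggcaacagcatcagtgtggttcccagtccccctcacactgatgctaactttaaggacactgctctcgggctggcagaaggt
S100a11: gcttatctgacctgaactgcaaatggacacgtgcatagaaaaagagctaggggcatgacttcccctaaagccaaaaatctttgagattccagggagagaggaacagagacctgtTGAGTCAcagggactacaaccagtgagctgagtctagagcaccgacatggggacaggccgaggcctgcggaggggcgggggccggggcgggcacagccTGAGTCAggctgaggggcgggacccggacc
S100a16: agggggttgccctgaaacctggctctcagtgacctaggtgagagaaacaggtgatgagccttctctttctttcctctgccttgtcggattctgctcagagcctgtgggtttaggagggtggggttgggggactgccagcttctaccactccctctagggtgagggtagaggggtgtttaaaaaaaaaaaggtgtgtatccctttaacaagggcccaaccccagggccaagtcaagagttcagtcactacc
S100a1-S100a13: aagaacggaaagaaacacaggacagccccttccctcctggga

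Start regions of 9 of the 10 genes, all but S100a10, were read from RefSeq, with 10 windows of 300 bases in all. The TATA box was found in 3 of these windows, at -31 to -26 from the start of S100a4, at -30 to -25 in S100a8 and at 1 to 6 in S100a9, against 13.6% of all 32851 windows in the table. AP-1 motifs were found in S100a11, at -136 to -130 and again at -38 to -32, and in the window of the downstream start of S100a16, at -192 to -186, against 7.81% of all windows. No window held a match to the NF-κB motif (4.51% of all windows), the CArG box (1.63%) or the MEF2 motif (3.19%). These matches describe letters in the windows.

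**Figure D1:**
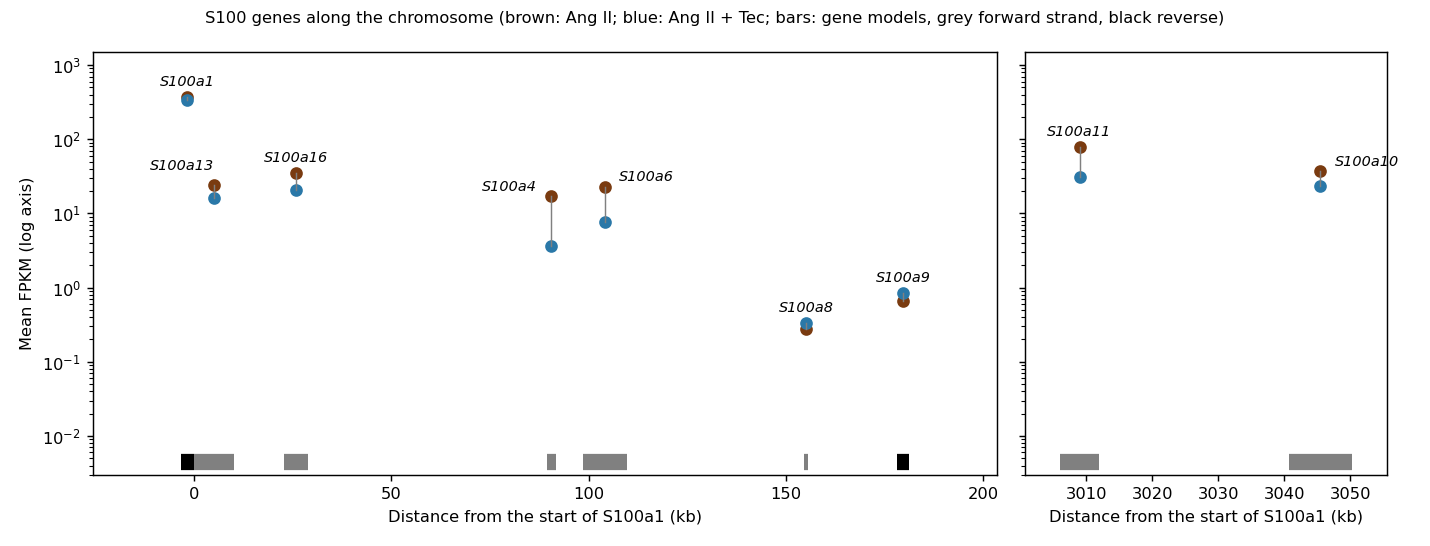
Mean FPKM (log axis) of the 9 S100 genes of chromosome 3 against the distance from the start of S100a1 in kb, with the Ang II group in brown, the Ang II + Tec group in blue and gene models as bars at the foot (grey forward, black reverse strand). The panels have separate distance scales and leave out the gap between S100a9 and S100a11. Neighbouring genes differ widely in level, from S100a1 at 373 FPKM to S100a8 at 0.277 FPKM in the Ang II group.

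FPKM are scaled by length, so levels were set side by side between genes, as an approximate comparison. The coding transcripts run from 336 nt in S100a4 to 1484 nt in S100b. S100a4 also shares 302 exonic bases with Gm42674, which leaves its level less certain. The order of mean FPKM was the same in both groups, with S100a1 first, followed by S100a11, S100a10, S100a16, S100a13, S100a6, S100a4, S100b, S100a9 and S100a8. S100a1 stood 4.74 times above S100a11 in the Ang II group and 10.9 times above it in the Ang II + Tec group, with no overlap of their values. S100a1 alone made up 65.1%, 53.7% and 75.2% of the summed FPKM of the 10 genes in the Ang II hearts and 80.7%, 70.4% and 77.5% in the Ang II + Tec hearts. Several neighbours in the order did not differ beyond their spread. In the Ang II group, S100a10 exceeded S100a16 in 1 of 3 hearts, S100a13 exceeded S100a6 in 2 of 3, and S100a9 exceeded S100a8 in 2 of 3. In the Ang II + Tec group, S100a11 exceeded S100a10 in 2 of 3 hearts (difference 7.96 ± 10.6 FPKM, SD, n = 3), S100a10 exceeded S100a16 in 2 of 3, and S100b exceeded S100a9 in 2 of 3. The summed FPKM of the 10 genes was 614, 706 and 452 in hearts with Ang II alone and 491, 423 and 419 in Tec hearts.

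**Figure D2:**
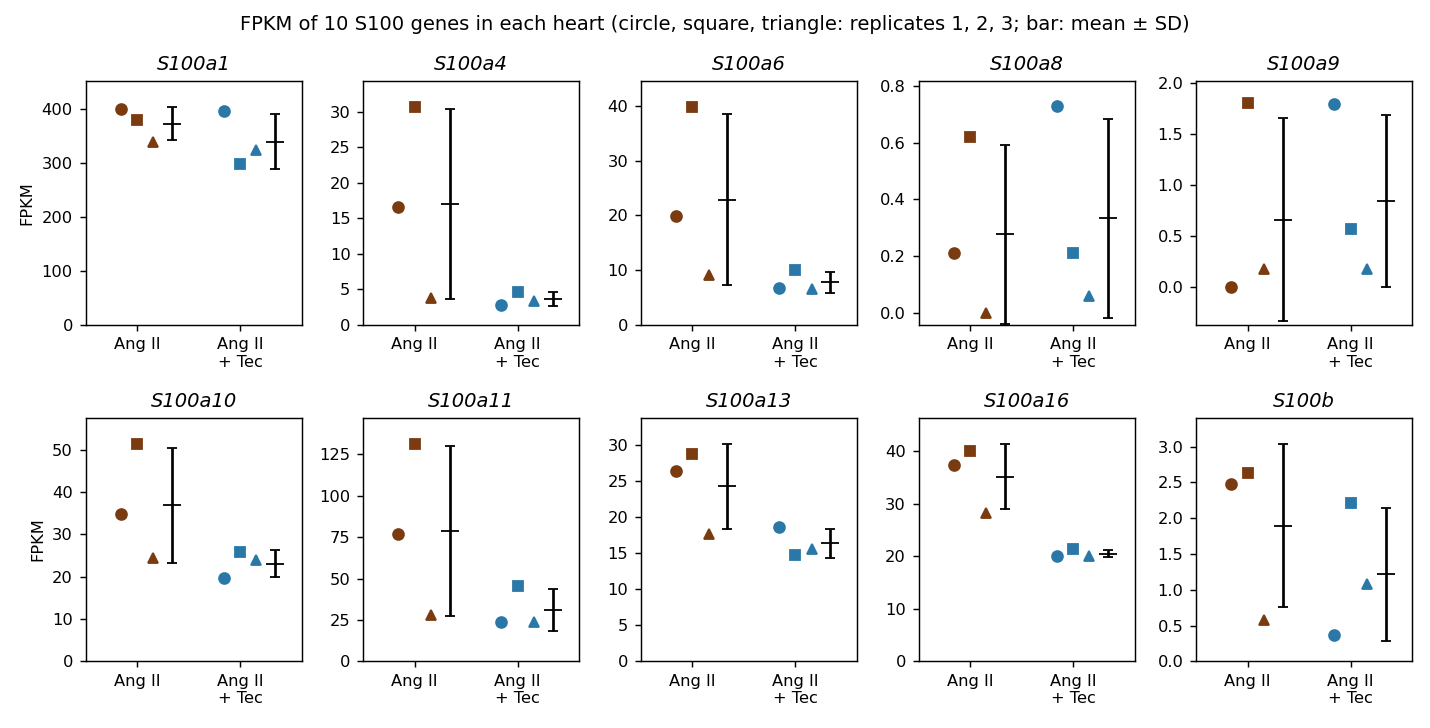
FPKM of the 10 S100 genes in each heart, with circles, squares and triangles for replicates 1, 2 and 3 and bars for the mean ± SD (n = 3 per group). S100a16 is the gene whose groups do not overlap, S100a4, S100a6 and S100a11 are highest in Ang II replicate 2, and the SD bars of S100a8 and S100a9 in the Ang II group reach below 0.

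S100a1 is the cardiomyocyte member, which binds the ryanodine receptor and the calcium pump of the sarcoplasmic reticulum and strengthens contraction. Its FPKM was 400.0, 379 and 339.8 under Ang II alone and 396, 298 and 325 after Tec. The 2 groups overlapped, and the highest Ang II + Tec heart stood close to the highest Ang II heart. The means were 373 ± 30.6 and 339.6 ± 50.8 FPKM (SD, n = 3). The log2 fold change was -0.14 (SE 0.14; 95% confidence interval -0.48 to 0.20; adjusted p = 0.562, limma), and turned to 0.09 with libraries rescaled by their median of ratios and, with no test, to 0.08 in the 3 libraries without atrial transcripts. That interval leaves out a loss or gain of 1 on the log2 scale. Of 8 cardiomyocyte markers, 4 were lower and 4 higher, 1 of the latter at an unadjusted p under 0.05, with a median log2 fold change of 0.01. Their summed FPKM ranged from 9353 to 11540 in the Ang II group and from 9854 to 11090 in the Ang II + Tec group.

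The partners of S100A1 in calcium handling and the sarcomere were Ryr2 (the ryanodine receptor), Atp2a2 (the calcium pump), Pln (its inhibitor) and Ttn (titin). All 4 were tested, 1 was lower, 3 were higher, and 0 passed at an unadjusted p under 0.05. Atp2a2 was at 979, 755 and 1311 FPKM with Ang II alone and at 1233, 1329.66 and 1237 FPKM with Tec, a log2 fold change of 0.35 (SE 0.20; adjusted p = 0.351). Ttn had a log2 fold change of 0.20 (SE 0.14; adjusted p = 0.415). For both genes the values of the groups overlapped.

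S100a4, also called fibroblast-specific protein, binds non-muscle myosin and is found in fibroblasts, macrophages and other motile cells. Its FPKM was 16.6, 30.7 and 3.83 in hearts with Ang II alone and 2.82, 4.65 and 3.34 in Tec hearts. Ang II replicates 1 and 2 were high, and Ang II replicate 3 lay within the range of the Ang II + Tec hearts. The means were 17.0 ± 13.4 and 3.60 ± 0.943 FPKM (SD, n = 3), a ratio of 0.212, the lowest of the 10 genes. The log2 fold change was -1.61 (SE 0.61; 95% confidence interval -3.06 to -0.17; unadjusted p = 0.0329, adjusted p = 0.243, limma). It was -2.38 (SE 0.26; adjusted p = 0.00257) without Ang II replicate 3 and -1.02 (adjusted p = 0.570) without Ang II replicate 2. In the 3 libraries without atrial transcripts, 1 Ang II heart against 2 Ang II + Tec hearts, the difference was -0.25 with no test.

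S100a6, calcyclin, is a member of dividing and stromal cells that binds the calcyclin-binding protein of a ubiquitin ligase. Its FPKM was 19.9, 39.8 and 9.01 under Ang II alone and 6.76, 10.0 and 6.56 after Tec. The pattern was that of S100a4, with Ang II replicate 3 between Ang II + Tec replicates 1 and 2. The ratio of means was 0.340 and the log2 fold change -1.24 (SE 0.46; unadjusted p = 0.0304, adjusted p = 0.240, limma). Its neighbour S100a4 was lower than S100a6 in each of the 6 hearts, and the ratio of S100a6 to S100a4 was 1.201, 1.297 and 2.35 with Ang II alone and 2.40, 2.15 and 1.96 with Tec.

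S100a10 and S100a11 partner with annexins, membrane-binding proteins, and S100A10 holds its active shape without calcium. S100a10 was at 34.9, 51.3 and 24.3 FPKM in hearts with Ang II alone and at 19.7, 25.7 and 23.9 FPKM in Tec hearts. S100a11 was at 76.6, 131 and 28.3 FPKM under Ang II alone and at 23.9, 45.6 and 23.6 FPKM after Tec. In both genes Ang II replicate 2 was the highest heart and Ang II replicate 3 fell within the Ang II + Tec range. The log2 fold change was -0.60 (SE 0.26; unadjusted p = 0.052, adjusted p = 0.271) for S100a10 and -1.13 (SE 0.53; unadjusted p = 0.0697, adjusted p = 0.294) for S100a11. The ratio of S100a11 to S100a10 was 2.20, 2.56 and 1.16 with Ang II alone and 1.215, 1.77 and 0.990 with Tec.

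The annexins and AHNAK, the scaffold that S100A10 and annexin A2 bind, comprised 6 tested genes. Of these, 4 were lower, 2 were higher, 0 passed at an unadjusted p under 0.05, and the median log2 fold change was -0.36. Among all tested genes, 80.0% were lower and the median was -0.17. Anxa2, the partner of S100A10, was at 32.1, 45.7 and 13.6 FPKM in hearts with Ang II alone and at 13.6, 18.8 and 12.8 FPKM in Tec hearts (log2 fold change -0.83, SE 0.40, adjusted p = 0.298). Anxa1, the partner of S100A11, was at 20.0, 36.8 and 7.72 FPKM and at 7.18, 12.0 and 7.41 FPKM (log2 fold change -0.99, SE 0.49, adjusted p = 0.309). Ang II replicate 3 sat with the Ang II + Tec hearts for these genes too.

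Partners in the cytoskeleton and in the ubiquitin ligase comprised Myh9 (non-muscle myosin), Cacybp and Sugt1 (both ligands of S100A6) and 3 tropomyosins. Of the 6 tested, 5 were lower and 1 was higher, where 80.0% of all tested genes were lower. There was 1 in each direction at an unadjusted p under 0.05 and 0 at an adjusted p under 0.05. The share of all tested genes lower at an unadjusted p under 0.05 was 16.5%. Tpm4 was at 42.0, 57.1 and 27.2 FPKM under Ang II alone and at 22.3, 25.2 and 23.8 FPKM after Tec (log2 fold change -0.74, SE 0.25, adjusted p = 0.229). Tpm3 was at 3.29, 4.08 and 5.00 FPKM and at 6.10, 7.46 and 6.42 FPKM (log2 fold change 0.59, SE 0.15, adjusted p = 0.201). The groups of Tpm3 and of Tpm4 did not overlap, in opposite directions. Of all tested genes, 18.9% had no overlap in the direction of Tpm4, and the share in the direction of Tpm3 is not given here.

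S100a13 assists the release of FGF1 and interleukin-1α, proteins that leave the cell without a signal peptide. Its FPKM was 26.4, 28.7 and 17.6 with Ang II alone and 18.65, 14.8 and 15.55 with Tec. Ang II replicate 3 was exceeded by 1 Tec heart, replicate 1, which kept the groups from separating. The ratio of means was 0.673 and the log2 fold change -0.52 (SE 0.20; unadjusted p = 0.0309, adjusted p = 0.240, limma). Of its 3 listed partners, Fgf1 alone passed the filter, with a log2 fold change of -0.01 (SE 0.14; adjusted p = 0.970), while Syt1 and Il1a stayed at or under 0.11 FPKM. The ratio of S100a1 to S100a13, the pair on either side of the 42 bases, was 15.2, 13.2 and 19.3 in hearts with Ang II alone and 21.2, 20.2 and 20.9 in Tec hearts, without overlap. That ratio was computed for neighbouring genes after their values were seen and was not tested.

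S100a16 is a widely expressed member with an atypical first EF-hand. Its FPKM was 37.25, 40.0 and 28.15 under Ang II alone and 20.1, 21.3 and 20.1 after Tec. Every Ang II heart was above every Ang II + Tec heart, and the 3 Ang II + Tec hearts lay close together (20.5 ± 0.707 against 35.2 ± 6.22 FPKM, SD, n = 3). It was the single tested S100 gene with no overlap, where 18.9% of all tested genes had no overlap in that direction. The ratio of means was 0.584 and the log2 fold change -0.73 (SE 0.15; 95% confidence interval -1.08 to -0.39; unadjusted p = 0.00145, adjusted p = 0.175, limma), which ranks it 107th of the 13089 genes by p. The log2 fold change ranged from -0.88 to -0.47 over all alternatives. It was -0.65 with atrial content as a term (SE 0.11; adjusted p = 0.143) and -0.47, with no test, in the 3 libraries without atrial transcripts.

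S100a8 and S100a9 form calprotectin, an abundant protein of neutrophils and monocytes that activates the receptors TLR4 and RAGE. S100a8 was at 0.21 and 0.62 FPKM in Ang II replicates 1 and 2 and listed at 0 in replicate 3, and was at 0.73, 0.21 and 0.06 FPKM after Tec. S100a9 was listed at 0 and then at 1.80 and 0.18 FPKM with Ang II alone and at 1.79, 0.57 and 0.18 FPKM with Tec. Both were highest in Ang II replicate 2 and Ang II + Tec replicate 1, 1 heart of each group. The log2 fold change of S100a9 was 0.22 (SE 0.44; adjusted p = 0.781), and without Ang II replicate 1 it was -0.07. The difference of S100a8 was 0.06 on the log2 scale (adjusted p = 0.901 in a fit with no filter). Of their receptors, Tlr4, Bsg and Cd36 were tested, and 1 was lower and 2 were higher, with 0 at an unadjusted p under 0.05. Tlr4 had a log2 fold change of -0.20 (SE 0.20; adjusted p = 0.545) and Cd36 of 0.37 (SE 0.16; adjusted p = 0.271), and Ager, the gene of RAGE, stayed at or under 0.26 FPKM.

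Neutrophil markers were scarce in the same hearts. Of 12 markers, 10 were in the table, Lcn2 alone passed the filter, and Ly6g and Mpo were listed at 0 in all 6 libraries. Their summed FPKM was 0.79 to 3.04 in the Ang II group and 1.68 to 2.81 in the Ang II + Tec group, and Lcn2 had a log2 fold change of 0.19 (SE 0.30; adjusted p = 0.706). At these levels of S100a8 and S100a9, close to the filter and uneven between hearts, no difference between the groups was detected. How large a change could have been seen was not worked out.

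S100b is the member of glia, known in the periphery from Schwann cells and adipocytes. Its FPKM was 2.48, 2.63 and 0.58 in hearts with Ang II alone and 0.37, 2.21 and 1.08 in Tec hearts. The 3 hearts with atrial transcripts were the 3 highest, whichever their group. The log2 fold change was -0.38 (SE 0.40; adjusted p = 0.582, limma), -0.03 with atrial content as a term and 0.10, with no test, in the 3 libraries without atrial transcripts. Of 7 Schwann cell markers, 4 were tested and all 4 were lower, where 80.0% of all tested genes were lower. Of the 4, 0 had an unadjusted p under 0.05. Cnp had a log2 fold change of -0.45 (SE 0.21; adjusted p = 0.293) and Gfra3 of -0.27 (SE 0.21; adjusted p = 0.449). Their summed FPKM was 8.05, 7.76 and 4.72 under Ang II alone and 3.34, 7.66 and 4.88 after Tec, again highest in the 3 hearts with atrial transcripts. The 6 adipocyte markers summed to 13.6, 37.8 and 1.21 FPKM and to 0.32, 103 and 3.47 FPKM, with 2 of 4 tested lower, 2 higher and a median log2 fold change of 0.06, and Cidec had a log2 fold change of 0.63 (SE 1.08; adjusted p = 0.736) and Cfd of -0.46 (SE 1.54; adjusted p = 0.869). The part of atrial tissue, nerve or fat in the level of S100b was not tested.

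**Figure D3:**
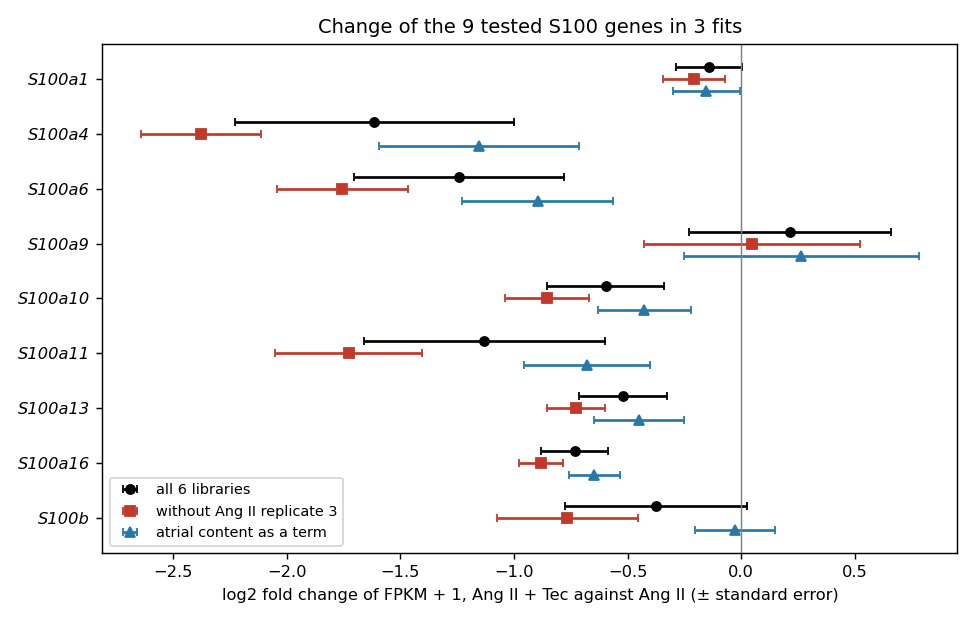
Log2 fold change of FPKM + 1 (Ang II + Tec against Ang II, ± SE) for the 9 tested S100 genes, with all 6 libraries (black), without Ang II replicate 3 (red) and with atrial content as a term (blue). S100a4 runs from -2.38 without Ang II replicate 3 to -1.15 with the atrial term, while S100a16 stays between -0.88 and -0.65.

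Over the 9 tested genes, 4 (S100a4, S100a6, S100a13 and S100a16) had an unadjusted p under 0.05 and all 4 were lower, where 16.5% of all tested genes did the same. S100a13 was not under 0.05 when libraries were rescaled by their median of ratios (log2 fold change -0.30, unadjusted p = 0.1285, limma). The same held after quantile normalization (-0.29, unadjusted p = 0.105, limma). S100a4, S100a6 and S100a16 stayed under 0.05 with both scalings. With an adjusted p under 0.05 and a log2 change of 1 or more in size, 0 of the 9 genes and 21 of all 13089 genes (0.160%) were called. Without Ang II replicate 3, which left 2 Ang II hearts, 6 of the 9 genes had an adjusted p under 0.05 and were lower: S100a4, S100a6, S100a10, S100a11, S100a13 and S100a16. In that fit 26.1% of all tested genes did so as well. The cardiomyocyte member S100a1, the calprotectin gene S100a9 and the glial S100b were not among the 6. With a log2 fold change of at most -1 in addition, 3 of the 9 genes (S100a4, S100a6 and S100a11) passed, against 3.71% of all tested genes. The values without that heart were -1.76 (adjusted p = 0.00809) for S100a6, -0.85 (adjusted p = 0.0164) for S100a10, -1.73 (adjusted p = 0.0112) for S100a11, -0.73 (adjusted p = 0.00940) for S100a13 and -0.88 (adjusted p = 0.00265) for S100a16. Without Ang II replicate 2 instead, the values lay closer to 0. They were -0.74 (adjusted p = 0.553) for S100a6, -0.33 (adjusted p = 0.628) for S100a10, -0.64 (adjusted p = 0.662) for S100a11 and -0.39 (adjusted p = 0.585) for S100a13. In the 3 libraries without atrial transcripts the difference, with no test, was -0.39 for S100a6, -0.16 for S100a10, -0.24 for S100a11 and -0.04 for S100a13. With atrial content as a term in limma, 0 of the 9 genes had an adjusted p under 0.05 and 3 (S100a4, S100a6 and S100a16) were lower at an unadjusted p under 0.05, against 18.6% of all tested genes. With library weights, the same 6 genes as without Ang II replicate 3 were lower at an adjusted p under 0.05, against 25.0% of all tested genes. An exact permutation test of 3 against 3 hearts cannot give a p under 0.1 and was not used.

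The lower S100 genes varied together over the 6 hearts. Pearson correlations of log2(FPKM + 1) are given as a description over 6 hearts that also share the uneven libraries. They were 0.988 between S100a4 and S100a6, 0.977 between S100a4 and S100a10 and 0.975 between S100a4 and S100a11. S100a8 and S100a9 had 0.908 with each other and at most 0.357 and 0.252 with S100a4, S100a6, S100a10 and S100a11. S100a1 had 0.464 with S100a4 and 0.788 with S100a13, its neighbour across 42 bases. Among 5049 genes with a mean of at least 5 FPKM, Rab6a (0.999), Serpina3n (0.999) and Mapre1 (0.999) were most like S100a4. Serpina3n, a secreted protease inhibitor, was at 35.1, 73.9 and 5.54 FPKM with Ang II alone and at 3.39, 5.96 and 4.48 FPKM with Tec. For S100a1 the nearest were Dnttip1 (0.985), Faf1 (0.978) and Plaat1 (0.975), for S100a8 Mcl1 (0.998), Cpxm2 (0.984) and H2aj (0.939), and for S100b Nadk (0.995), Pttg1ip (0.9935) and Ciao1 (0.992).

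Fibroblast markers moved with S100a4, S100a6 and S100a11. All 9 were tested and all 9 were lower, with a median log2 fold change of -2.04. Of the 9, 6 had an unadjusted p under 0.05 and 0 an adjusted p under 0.05. Among all tested genes, 80.0% were lower and 16.5% were lower at an unadjusted p under 0.05. The summed FPKM of the 9 markers was 796, 1076 and 175 in hearts with Ang II alone and 143.5, 238.5 and 158 in Tec hearts. Ang II replicate 3 again lay within the Ang II + Tec range. Col3a1, a fibrillar collagen, was at 139.5, 207 and 18.9 FPKM and at 9.71, 16.7 and 9.63 FPKM (log2 fold change -2.72, SE 0.80, adjusted p = 0.220). Postn, periostin of activated fibroblasts, had a log2 fold change of -3.02 (SE 0.96, adjusted p = 0.224). The part of fibroblast content in the levels of the S100 genes was not tested.

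**Figure D4:**
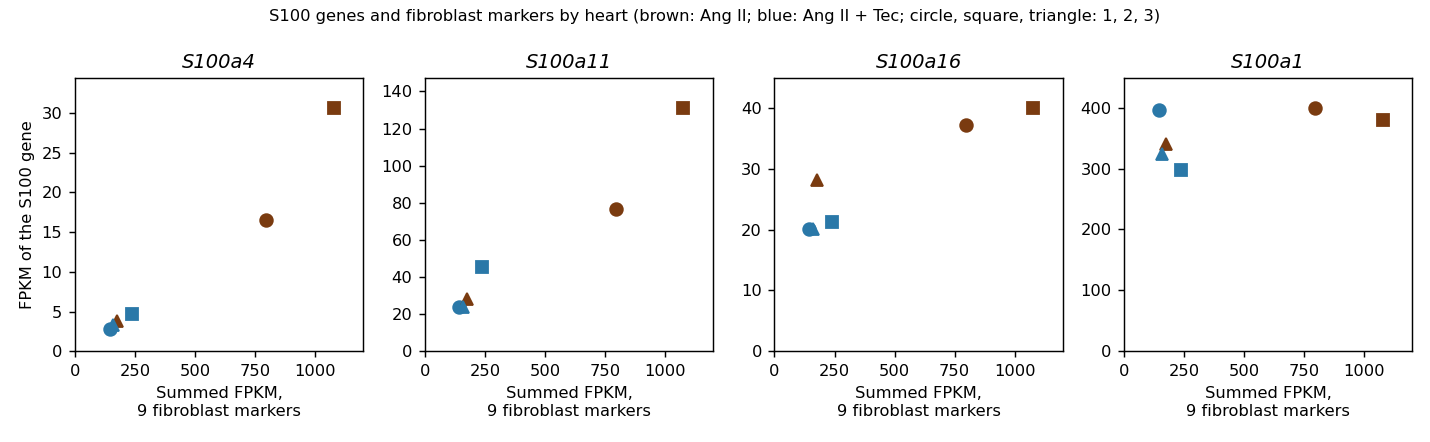
FPKM of S100a4, S100a11, S100a16 and S100a1 against the summed FPKM of 9 fibroblast markers, 1 point per heart (brown Ang II, blue Ang II + Tec; circle, square and triangle for replicates 1, 2 and 3). S100a4 and S100a11 are high in the 2 hearts with 796 and 1076 FPKM of fibroblast markers, whereas S100a16 at 28.15 FPKM in Ang II replicate 3 stays above the Ang II + Tec hearts and S100a1 varies without that order.

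Macrophage and monocyte markers were lower as well, 10 of 11 tested (median log2 fold change -0.82). Of these, 9 had an unadjusted p under 0.05 and 0 an adjusted p under 0.05. Among all tested genes, 80.0% were lower and 16.5% were lower at an unadjusted p under 0.05. Cd163 had a log2 fold change of -0.07 and Ly6c2, the higher marker, of 0.06. The summed FPKM of the 11 markers was 341, 520.3 and 266 under Ang II alone and 183, 183 and 199 after Tec, without overlap, as for S100a16. Within that sum, Lyz2 was at 163, 290 and 135 FPKM and at 107, 97.0 and 107 FPKM. C1qa, a complement subunit made by macrophages, was at 67.9, 82.45 and 47.4 FPKM and at 26.3, 28.1 and 32.3 FPKM (log2 fold change -1.13, SE 0.20, adjusted p = 0.154). C1qb, another subunit, had a log2 fold change of -1.15 (SE 0.21, adjusted p = 0.154). The part of macrophage content in the levels of S100a4, S100a10, S100a11 and S100a16 was not tested. Of 10 further S100 genes, 4 were in the table, namely S100a3, S100a7a, S100a14 and S100z, and none passed the filter. Their summed FPKM was 0.07 to 0.47, and S100z was listed at 0 in all 6 libraries.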

How the data were processed

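The authors extracted RNA from mouse heart tissue, trimmed reads with Cutadapt and checked them with FastQC. The submitters' processing notes name Bowtie 0.12.2, HISAT2 2.0, StringTie 1.3.0 and the build mm8 with no role, whereas the gene coordinates equal those of GENCODE M21 on GRCm38 for 27947 of 30832 genes (90.6%). Strandedness is not given in the sources used here, and the study states a nominal coverage of the transcriptome but no number of reads per heart. The deposited values are FPKM per gene and heart, which are not counts, and limma was fitted to their logarithm.

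Genes with at least 0.5 FPKM in at least 3 libraries were tested as log2(FPKM + 1) with limma 3.58.1 in R 4.3.3 (empirical Bayes with a variance trend, no block, Benjamini-Hochberg adjustment over 13089 genes). The columns of per-heart FPKM were the measurements used. The fit was tested on simulated data, where 199 of 200 genes changed by a log2 fold change of 2 were recovered among 12870. That simulation drew independent noise, capped the spread of the most variable genes and changed only genes well above the filter. It left out the uneven libraries, so its recovery does not carry over to variable genes such as S100a4. The precision is that of 3 hearts a group.

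The members, partner lists and marker lists were chosen with earlier results of these data known. Named were all members, the 2 tested genes of each list with the lowest p, and the 3 genes with the highest correlation to each of S100a1, S100a4, S100a8 and S100b; other genes of the lists were chosen after their values were seen. Alternatives changed the pseudocount, filter, scaling, block, weights and variance trend, and left out each heart. Figures were drawn with matplotlib 3.10.9.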

Additional observations from a re-analysis of the deposited data

How the results depend on the processing

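The count of genes called was 21, and 14 to 22 under both other pseudocounts, a filter of 1 FPKM, the 3 other scalings and no variance trend. It was 3 without a filter, 522 with library weights, whose estimation did not fully converge, 13 with atrial content as a term, and 0 to 544 when each heart was left out (3, 6 and 544 without Ang II replicates 1, 2 and 3, and 0 by limma without any 1 of the Tec hearts, where 1219, 2324 and 1172 genes had an unadjusted p under 0.05). S100 genes with an adjusted p under 0.05 numbered 0, but 6 with library weights, all lower, against 25.0% of all tested genes, and 0 to 6 when each heart was left out, with 6 only without Ang II replicate 3. With the replicate block 22 genes were called, and 6 of the 9 S100 genes were lower at an unadjusted p under 0.05, against 22.9% of all tested genes, and 0 had an adjusted p under 0.05. The labels name no pairing between hearts of the same number. Their deviations from the group means correlated at -0.0394, 0.429 and 0.379. Ang II replicate 1 correlated best with Ang II + Tec replicate 2 (0.212), whereas Ang II replicates 2 and 3 correlated best with the Ang II + Tec heart of their own number. These values cannot settle whether hearts were paired. Of 177 values for single S100 genes under the alternatives, 168 kept their sign, 12 of them newly past the threshold, and 9 turned it, and the cause was not tested. S100a1 turned to 0.0932 with the median of ratios and to 0.0779 in the libraries without atrial transcripts. S100a9 turned to -0.696 with library weights, to -0.0722 without Ang II replicate 1 and to -0.09195 in the libraries with atrial transcripts. It passed the filter in 3 of the 6 fits that left out a heart, where it ranged from -0.0722 to 0.491. S100b turned to 0.0955 in the libraries without atrial transcripts. The untested difference of S100a8 turned to -0.144 when Ang II + Tec replicate 1 was left out, to -0.102 when Ang II replicate 3 was and to -0.2105 in the libraries with atrial transcripts. The terms and splits by atrial transcripts (Myl7 of at least 100 FPKM) were chosen after seeing the data. Without counts, the precision at low FPKM is unknown, which limits S100a8, S100a9 and S100b.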

Other observations

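Lists of other cell types were compared in the same way, to place the S100 genes in the tissue. Endothelial markers were lower in 5 of 6 tested genes, 1 of them at an unadjusted p under 0.05, with a median log2 fold change of -0.12, and Kdr, a receptor of vascular growth factor, had -0.33 (SE 0.14, adjusted p = 0.259) and Emcn, a sialomucin of capillaries, -0.36 (SE 0.19, adjusted p = 0.328). Smooth muscle and pericyte markers were lower in 5 of 6, with a median of -0.35, Tagln at -1.01 (SE 0.74, adjusted p = 0.433) and Pdgfrb at -0.20 (SE 0.15, adjusted p = 0.4435). Among cardiomyocyte markers, Myh6, the adult myosin heavy chain, had a log2 fold change of 0.51 (SE 0.22, adjusted p = 0.268) and Tnnt2, cardiac troponin T, of -0.27 (SE 0.12, adjusted p = 0.274). Atrial markers were lower on the log2 scale in 4 of 4 tested, with Nppa at -1.69 (SE 1.59, adjusted p = 0.532) and Myl4 at -2.30 (SE 2.54, adjusted p = 0.593). In mean FPKM, Myl7 (250.4 with Ang II alone, 347.1 with Tec) and Sln (67.3 and 85.1) were higher with Tec, as was the untested Bmp10 (0.39 and 7.98). These 3 genes were highest in Ang II + Tec replicate 2. Red blood cell genes were lower in 5 of 5, with Alas2 at -0.66 (SE 0.35, adjusted p = 0.325) and Hbb-bt at -1.035 (SE 0.62, adjusted p = 0.369). None of the smooth muscle, atrial, red blood cell or mesothelial genes tested had an unadjusted p under 0.05. Mesothelial markers were higher in 4 of 4 tested, with Upk3b at 0.67 (SE 0.73, adjusted p = 0.589) and Upk1b at 0.21 (SE 0.48, adjusted p = 0.807).

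Skeletal muscle genes held the only called genes of these lists. Of 7 in the table, 5 were tested, 4 were higher, 1 was lower and 2 passed. The lower gene, Tnnt3, was at 6.91, 42.4 and 0.30 FPKM with Ang II alone and at 1.41, 1.04 and 1.31 FPKM with Tec (log2 fold change -1.77, SE 1.09, adjusted p = 0.378). Myh1 and Myh2 stayed at or under 0.02 FPKM and were not tested. Atp2a1, the calcium pump of fast skeletal muscle, was at 0.10, 0.07 and 0.07 FPKM with Ang II alone and at 6.30, 7.51 and 7.46 FPKM with Tec (log2 fold change 2.90, SE 0.11, adjusted p = 0.000251), and Mylpf, a fast myosin light chain, had 1.80 (SE 0.15, adjusted p = 0.0142). Both also had an adjusted p under 0.05 without Ang II replicate 3 (6.86e-05 for Atp2a1 and 0.000964 for Mylpf).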
